A study of Homo sapiens with 6 samples.

Results

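The insulin-like growth factor (IGF) binding proteins and the receptors and substrates they act beside were measured as mRNA in SNU638, a human gastric cancer cell line. The members are 10 genes: the binding protein genes IGFBP2 to IGFBP7, the receptor genes IGF1R and IGF2R, and the receptor substrate genes IRS1 and IRS2. They were taken by gene symbol, as all probes whose platform annotation gives 1 symbol equal to a member, which found 12 probes of 29377 and 10 genes of 19432. The family was selected on measured values, since IGFBP3 was already known to be high in this same contrast. All member values of the contrast are therefore a description, including the side of the fit's threshold on which a value lay, and neither that side nor an interval is a test of the members.

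The study compared mock cells, which carry the empty vector, with cells overexpressing LAP2β, a protein of the inner nuclear membrane, to look for genes behind the motility of the cancer cells. The LAP2β line was made with a construct named for the CMV promoter, together with a neomycin resistance plasmid and G418 selection, the mock line was established alongside it, and both were grown in the same serum-containing medium. There were 3 arrays of each group, 1 per sample, on Illumina Human HT-12 bead chips. The paper calls the LAP2β cells a stable line and names a clone, without saying which clone was arrayed. Nor is it stated if the 3 arrays per group represent independent cultures. A standard error or p-value therefore covers no more than the spread among these 6 samples, and that spread may be technical. The contrast sets 1 LAP2β line against 1 mock line. Whether any difference between them comes from LAP2β or from which cells were selected was not tested.

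Median signals before normalization ran from 192.2 to 199.9 on the mock arrays and from 189.5 to 195.8 on the LAP2β arrays. A signal counted as above background where its detection p-value was under 0.01, which held for 44.1% to 46.6% of the probes per array. The analysis kept the 13323 probes for which it held on 3 or more of the 6 arrays. Of 6 epithelial marker genes, 5 were above background on all 6 arrays, and all 3 endothelial markers and 6 of 7 fibroblast markers were above it on none. Of the 4 leukocyte markers with a probe, CD68 and LYZ were detected on all 6 arrays (CD68 at mean log2 signals of 12.24 in mock and 12.15 in LAP2β cells, LYZ at 7.90 and 8.09), and PTPRC and CD3E on none. Of the 6 gastric markers with a probe, MUC1 was detected on every array and TFF1, TFF2, GKN1, VIL1 and CDX2 on none. No marker passed the limma test. With arrays paired by number in the fit, the epithelial genes KRT8 (log2 fold change 0.42, adjusted p = 0.126 from limma without and 0.00943 with the pairs) and CDH1 (0.74, 0.0579 and 3.08e-04) passed it. With these pairs 637 of 9905 kept genes passed, which is 6.43%. The pairing was taken from correlations in these same data, and no source says what a number shares. TMPO, the gene of LAP2, had 1 kept probe of 3, not the one listed for the β transcript, at a log2 signal of 9.79 ± 0.21 (SD, n = 3) in mock and 9.76 ± 0.12 (SD, n = 3) in LAP2β cells (adjusted p = 0.943 from limma). The β probe gave no signal over background anywhere, so the overexpressed transcript could not be checked here. The paper itself checked the overexpression by real-time PCR and western blot, and reports a higher LAP2β mRNA level in these cells.

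IGF1 and IGF2 signal through the receptor tyrosine kinase encoded by IGF1R, which passes the signal to the adaptor proteins IRS1 and IRS2 and from there to PI3-kinase and AKT. The secreted binding proteins hold IGFs in the blood and in the tissue and so limit or prolong their access to the receptor, and several also act on cells without IGF. IGF2R, the cation-independent mannose 6-phosphate receptor, has no kinase: it takes up IGF2 for breakdown and carries newly made lysosomal enzymes to the lysosome. IGFBP3, the main carrier of IGFs in serum, is in many epithelial cells a gene that p53 and TGF-beta induce.

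Of the 12 member probes, 6 were kept, and they stand for 5 genes: IGFBP3 with both of its probes, IGFBP4, IGFBP6, IGF2R and IRS1. Of the other 5 genes, IGFBP2, IGFBP5, IGF1R and IRS2 were above background on no array and IGFBP7 on 1. Both probes of IGFBP3 were higher in LAP2β cells and the probe of IRS1 lower, and these 3 lay past the fit's threshold (adjusted p under 0.05 from limma, over all kept probes). Past it lay 146 of all kept probes as higher, which is 1.10%, and 74 as lower, which is 0.555%. The members were chosen from this contrast, so their side of the threshold uses the values that chose them, and nothing is read from their count beside these shares.

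IGFBP3 was the binding protein gene that differed most between the lines. Its first probe, annotated to the transcript NM_000598.4, had log2 signals of 7.75, 7.74 and 8.18 in mock replicates 1 to 3. In LAP2β replicates 1 to 3 it read 9.97, 10.03 and 10.59. All 3 LAP2β arrays lay far above all 3 mock arrays, and in each group the array numbered 3 was the highest. Before normalization these were signals of 216.4, 223.5 and 286.3 in mock and of 927.4, 988.6 and 1478 in LAP2β cells. The means were 7.89 ± 0.25 (SD, n = 3) and 10.20 ± 0.34 (SD, n = 3), a 4.94-fold difference (log2 fold change 2.31, SE 0.17, 95% interval 1.93 to 2.68). This rise ranked 4 among the 13323 kept probes. In RNA of a whole culture, a higher level per cell and a larger share of cells with the mRNA cannot be told apart. The mock signals were near the bottom of what the arrays could measure, since the lowest log2 signal above background was 7.70 to 7.79 on an array, and the probe was above background on all 3 mock arrays.

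The second IGFBP3 probe, annotated to NM_001013398.1, read 7.54, 7.70 and 8.04 in mock and 9.31, 9.54 and 9.87 in LAP2β cells. The groups again did not overlap, and in each of them the array numbered 1 was lowest and that numbered 3 highest. The means were 7.76 ± 0.25 and 9.57 ± 0.29 (SD, n = 3 each), which is 3.52-fold (log2 fold change 1.82, SE 0.16). This probe was above background on 1 mock array (replicate 3, whose detection was set by rank) and all 3 LAP2β arrays, so it was kept, and came to be counted past the threshold, through the group in which it was high. Its fold is set against a group mostly at background and is not a measured ratio of 2 mRNA levels.

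Taken by replicate number, the first probe was higher by 2.22, 2.29 and 2.41 on the log2 scale in the LAP2β array than in the mock array of the same number. For the second probe these differences were 1.76, 1.85 and 1.84. The 3 differences lay closer together than the levels within a group, and with the replicate number in the fit the SE of the first probe's log2 fold change was 0.081. After background correction by neqc, which subtracts an estimated background and so lowers dim signals most, the first probe was 10.0-fold and the second 7.45-fold higher. The SE of these log2 fold changes were 0.28 and 0.29. The mock signals of both probes were at or near background, so the size of both folds rests on the estimated background. The second is again no measured ratio of mRNA levels.

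**Figure D1:**
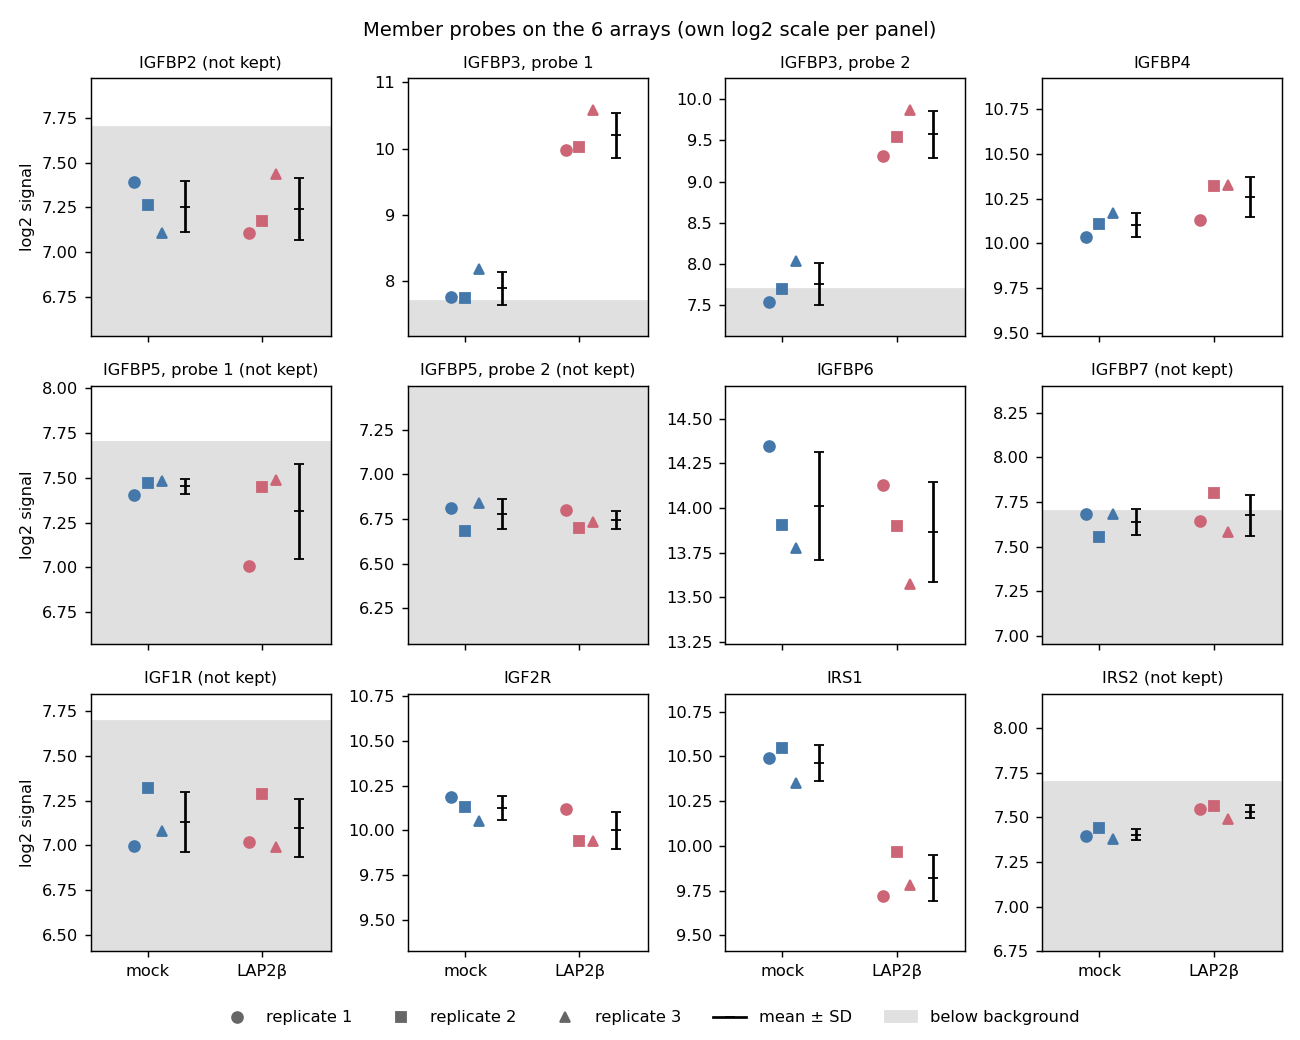
Log2 signal (vertical axes, each panel on its own scale) of the 12 member probes on the 3 mock (blue) and 3 LAP2β (red) arrays, with the replicate as the symbol, mean and SD as bars, and grey for signals below the lowest one counted above background. The IGFBP3 probes rose from near the grey band to means of 10.20 and 9.57, IRS1 fell from 10.46 to 9.82, and 6 probes were not kept.

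The other binding proteins did not move in this way. IGFBP4, which inhibits IGF action in most settings and is cut by the protease PAPPA, read 10.03, 10.11 and 10.17 in mock and 10.13, 10.32 and 10.33 in LAP2β cells. The lowest LAP2β array lay within the mock range, so the groups overlapped. The log2 fold change was 0.16 (SE 0.093, 95% interval -0.048 to 0.36). It was -0.012 without normalization between arrays, where the median over all kept probes was itself -0.14. The 3 same-numbered differences were 0.098, 0.21 and 0.16, all above 0.

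IGFBP6, a binding protein that prefers IGF2, gave signals of 14.35, 13.91 and 13.78 in mock and 14.13, 13.90 and 13.57 in LAP2β cells. In both groups the array numbered 1 was highest and that numbered 3 lowest, and the groups overlapped. The log2 fold change of -0.14 (SE 0.17, 95% interval -0.51 to 0.22) was smaller than the SD of 0.30 among the mock arrays. It was 0.027 without mock replicate 1 and 0.0048 without LAP2β replicate 3, so its sign rested on single arrays. Before normalization its signals ran from 12062 to 21115, and it was above background on all 6 arrays.

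The probes of IGFBP2, IGFBP5 and IGFBP7 gave no measurable difference. IGFBP2 lay between 7.11 and 7.44 over the 6 arrays, with means of 7.25 in mock and 7.24 in LAP2β cells. The IGFBP5 probes had means of 7.45 and 7.31 for the first and 6.78 and 6.74 for the second, in mock and LAP2β cells. Neither gene rose above background on any array, so no fold is given and a difference below the background level was not detectable. IGFBP7, a binding protein with low affinity for IGFs, lay between 7.55 and 7.80 and was above background only on LAP2β replicate 2, its highest array.

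**Figure D2:**
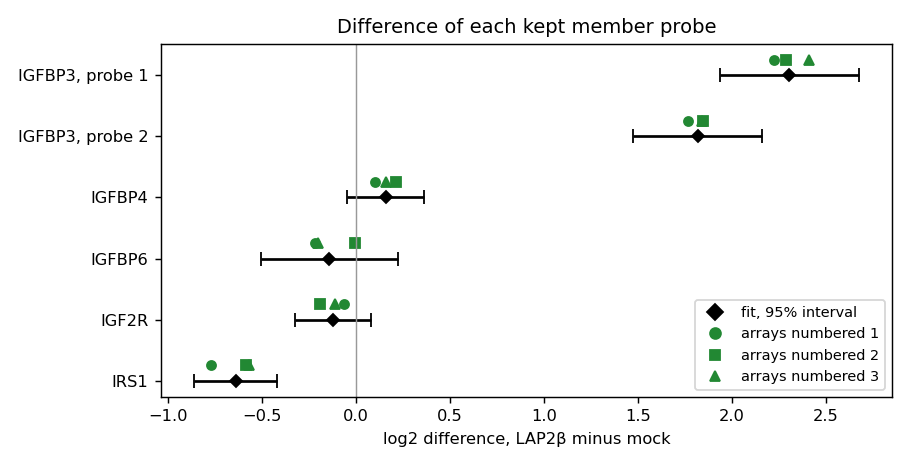
Log2 difference, LAP2β minus mock (horizontal axis), of the 6 kept member probes: the diamond is the fitted value with its 95% interval, and the green symbols are the differences between arrays of the same replicate number. The intervals of IGFBP4, IGFBP6 and IGF2R include 0, those of both IGFBP3 probes lie above 0, and that of IRS1 ends at -0.42.

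Among the receptors, IGF1R could not be compared. Its single probe lay between 6.99 and 7.32 and never rose above background, with means of 7.13 ± 0.17 in mock and 7.10 ± 0.16 in LAP2β cells (SD, n = 3 each). This says that the probe gave no signal over background, and not that the receptor was absent. IGF2R was well measured, at 10.18, 10.13 and 10.05 in mock and 10.12, 9.94 and 9.94 in LAP2β cells. The highest LAP2β array lay within the mock range. The log2 fold change was -0.12 (SE 0.092, 95% interval -0.33 to 0.080), with same-numbered differences of -0.065, -0.19 and -0.11.

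IRS1, the substrate that docks PI3-kinase to the activated receptor, ran opposite to IGFBP3. Its log2 signals were 10.49, 10.55 and 10.35 in mock and 9.72, 9.97 and 9.78 in LAP2β cells. Every LAP2β array lay below every mock array. Signals before normalization were 1470, 1726 and 1315 in mock and 781.7, 942.8 and 845.8 in LAP2β cells. The means of 10.46 ± 0.10 and 9.82 ± 0.13 (SD, n = 3 each) give a 1.56-fold lower level in LAP2β cells (log2 fold change -0.64, SE 0.10, 95% interval -0.86 to -0.42). The difference ranked 49 among the falls of the kept probes, and the same-numbered differences were -0.77, -0.58 and -0.57. Its log2 fold change was -0.60 without mock replicate 2, where it no longer lay past the threshold. The gene was 1.51-fold to 1.75-fold lower over the settings tried. The 1.75-fold end came without normalization between arrays, where the median over all kept probes was itself -0.14.

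IRS2, the other main substrate, had signals of 7.39, 7.44 and 7.38 in mock and 7.54, 7.56 and 7.49 in LAP2β cells. The LAP2β arrays lay above the mock arrays, but none of the 6 was above background, so no fold is given. Of the 6 kept member probes, 3 had groups that did not overlap, namely both of IGFBP3 and that of IRS1. Over all kept probes, 2533 had groups that did not overlap, which is 19.0%. The members were chosen from this contrast, so nothing is read from their count beside this share.

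**Figure D3:**
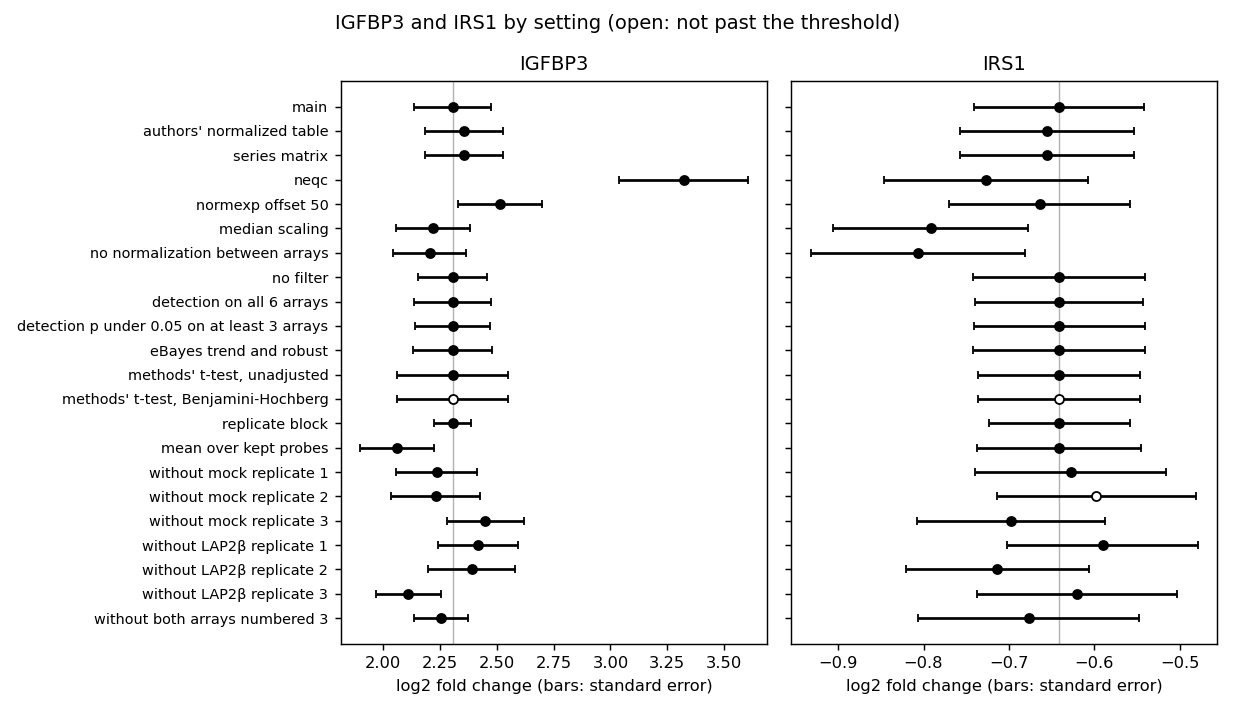
Log2 fold change with its standard error (horizontal axes) of IGFBP3 and IRS1, each by its brightest kept probe, for each setting of the processing (vertical axis), and the mean over kept probes as one of them. Filled points were past the threshold and open points were not: IGFBP3 stayed between 2.06 and 3.32 and IRS1 between -0.81 and -0.59.

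The genes whose log2 signal was most like that of IGFBP3 over the 6 arrays were PHPT1, a histidine phosphatase (Pearson r = 0.997), CAV1, the main protein of caveolae (0.992), SOCS2, a suppressor of cytokine signalling (0.991, by the dimmer of its probes), OR51B4, an olfactory receptor gene (0.990), and CNPPD1 (0.988). The genes most like IRS1 were AKR1C3, an aldo-keto reductase (0.995), KPNA4, an importin (0.994), CAPS2 (0.993), ATP5F1A, a subunit of the ATP synthase (0.991), and FUT4, a fucosyltransferase (0.990). The 6 points of each correlation share the group difference, so these values are a description of the same contrast.

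Likeness in shape went with very unequal sizes. These genes were picked by likeness over the same 6 arrays, so their adjusted p values are a description and no test. OR51B4 and AKR1C3 were kept only through the group in which they were high. Beside IGFBP3, OR51B4 was above background on no mock array and at least 2.12-fold higher in LAP2β cells, taken against the lowest signals above background on the mock arrays (adjusted p = 1.31e-05 from limma). CAV1 was 1.81-fold higher in LAP2β cells (adjusted p = 0.00139 from limma), while PHPT1 was 1.29-fold higher (adjusted p = 0.0638), CNPPD1 1.18-fold (adjusted p = 0.232) and SOCS2, by this probe, 1.14-fold (adjusted p = 0.353), which were not past the threshold. Beside IRS1, AKR1C3 was above background on no LAP2β array and, set against the floor in the same way, at least 1.32-fold lower there (adjusted p = 0.00361 from limma). KPNA4 was 1.24-fold, CAPS2 1.29-fold, FUT4 1.26-fold and ATP5F1A 1.14-fold lower (adjusted p from 0.0794 to 0.353 from limma), with CAPS2 above background on 1 of the 3 LAP2β arrays.

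The rest of the IGF axis was followed through 62 further genes, of which 57 had a probe and 35 were kept. None of the 35 passed the limma test after adjustment, beside 177 of 9905 kept genes, which is 1.79%. At an unadjusted limma p under 0.05 the counts were 11 of the 35 and 1364 of all kept genes, which is 13.8%. The median log2 fold change of the 35 genes was -0.0057, beside -0.0068 over all kept genes, with 17 genes above 0 and 18 below and a range from -0.44 to 0.48. With the replicate numbers as pairs, 1 of the 35 passed, SOCS3, beside 637 of all kept genes, which is 6.43%. The methods' t-test gave 3 genes with an unadjusted p under 0.05, SOCS2, TSC1 and GRB14, beside 1258 of all kept genes, which is 12.7%, and 0 of the 35 after Benjamini-Hochberg adjustment.

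The ligands were not measurable. IGF1 and IGF2, each with 2 probes, were above background on no array, and the insulin gene INS was so on 2 arrays and not kept. Among the other binding proteins and related proteins, IGFBP1, IGFBPL1, IGFALS and ESM1 were above background on none, and 5 of 9 genes were kept. CCN1, a matricellular protein of the CCN family, had log2 signals of 11.76, 12.45 and 12.54 in mock and 12.81, 12.77 and 12.60 in LAP2β cells. The groups did not overlap, and mock replicate 1 lay far below the other mock arrays. The change was 0.48 on the log2 scale (SE 0.17), with an adjusted p of 0.244 from limma. The related genes CCN3 and CCN2 both had log2 fold changes of -0.24, with adjusted p values of 0.318 and 0.476 from limma, and CCN3 was above background on 1 of the 3 LAP2β arrays.

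Of the 7 genes of binding protein proteases and their inhibitors, 1 was kept. That gene was CTSD, which encodes the lysosomal protease cathepsin D (log2 fold change 0.14, adjusted p = 0.620 from limma). The proteases PAPPA and PAPPA2 and their inhibitors STC1 and STC2 were above background on no array. Among the other receptors, INSR was above background on 2 arrays and not kept. TMEM219, reported as a receptor for IGFBP3, was kept and differed by 0.12 on the log2 scale (adjusted p = 0.815 from limma).

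The 4 genes that share the mannose 6-phosphate pathway with IGF2R were all kept, and 0 of them passed the test. The log2 fold change was 0.23 for NAGPA, which uncovers the mannose 6-phosphate tag (adjusted p = 0.337), that of GNPTG, a subunit of the enzyme that starts the tag, 0.21 (adjusted p = 0.436), and that of M6PR, the smaller mannose 6-phosphate receptor, 0.17 (adjusted p = 0.514, all from limma). These values and that of GNPTAB, at 0.027, lay above 0, on the other side from the -0.12 of IGF2R.

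Among the adaptors and the inhibitors that act near the receptor, 8 of 12 genes were kept. SOCS2 had the smallest adjusted p of the whole list: its log2 signals were 11.39, 11.37 and 11.37 in mock and 11.58, 11.72 and 11.64 in LAP2β cells. The groups did not overlap and the mock arrays were nearly equal. The log2 fold change was 0.27 (SE 0.085, adjusted p = 0.174 from limma). SOCS3, a related inhibitor that also binds the insulin receptor, read 9.06, 8.88 and 8.35 in mock and 8.33, 8.43 and 8.21 in LAP2β cells. Mock replicate 3 lay below LAP2β replicate 2, so the groups overlapped. Its log2 fold change of -0.44 (SE 0.16) had an adjusted p of 0.235 from limma, of 0.0274 with the replicate numbers as pairs and of 0.0191 without mock replicate 3, where it was -0.65. For PTPN1, the phosphatase that acts on the insulin and IGF1 receptors, it was 0.26 (adjusted p = 0.266 from limma).

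Downstream, 14 of 20 genes of the PI3-kinase, AKT and FOXO group were kept and 0 passed the test. The log2 fold change was -0.32 for RPS6KB1, the S6 kinase that phosphorylates IRS1 (adjusted p = 0.202). The FOXO transcription factors, which AKT keeps out of the nucleus, had values of -0.29 for FOXO3 (adjusted p = 0.240), -0.30 for FOXO4 (adjusted p = 0.283) and -0.25 for FOXO1 (adjusted p = 0.372, all from limma). The 3 FOXO genes thus lay on the same side as IRS1, with smaller differences that were not past the threshold. FOXO1 was named outside the rule of up to 3 genes with the smallest adjusted p. Over the 14 kept genes of the group the median log2 fold change was -0.030, with 5 genes above 0 and 9 below. RPS6KB1 passed with median scaling (log2 fold change -0.48) and without normalization between arrays (-0.50), where FOXO4 passed too (-0.46). The median over the kept probes was itself -0.13 and -0.14 under these scalings. Of the mRNA-binding proteins named for IGF2 mRNA, IGF2BP2 differed by -0.23 (adjusted p = 0.364) and IGF2BP3 by 0.19 on the log2 scale (adjusted p = 0.604, both from limma), and IGF2BP1 was above background on no array.

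**Figure D4:**
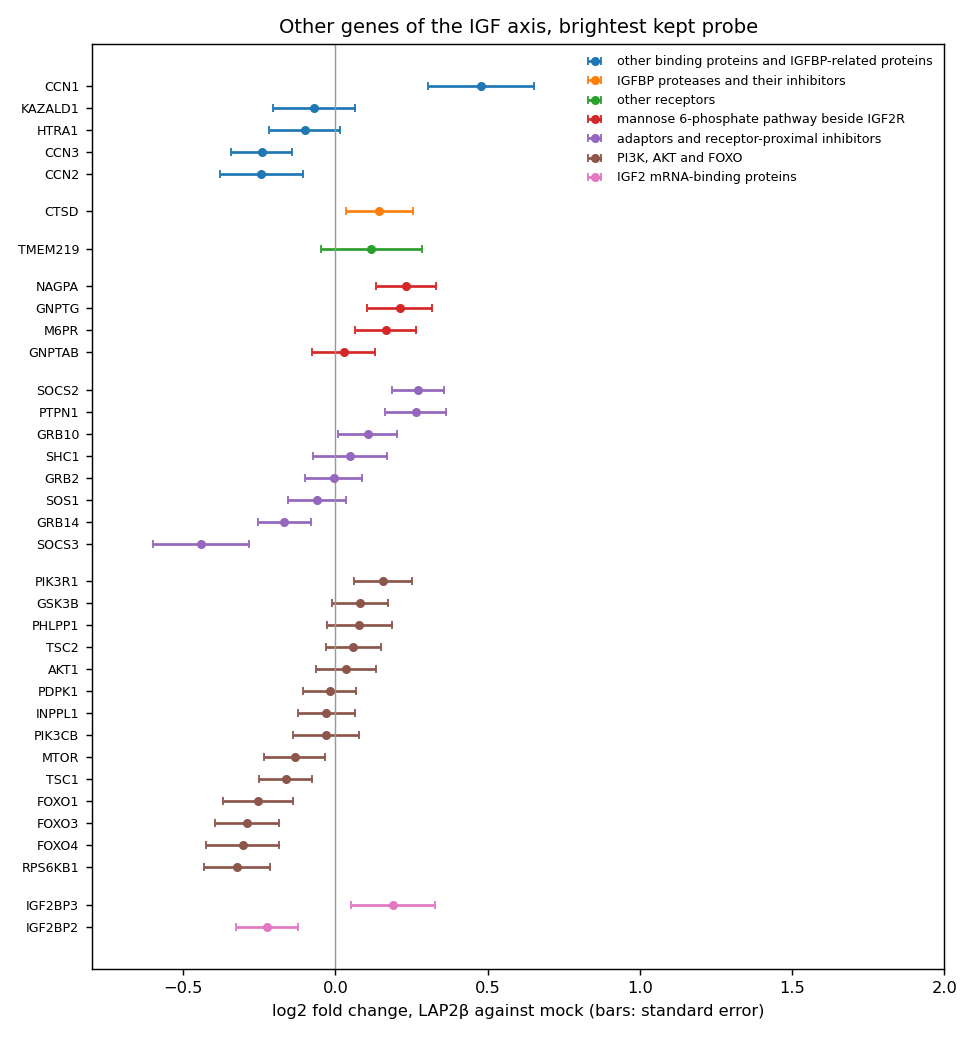
Log2 fold change with its standard error, LAP2β against mock (horizontal axis), of the 35 kept genes of the IGF axis outside the members, coloured by role. CCN1 at 0.48 and SOCS3 at -0.44 are the ends of the range, and none of the genes was past the threshold of the limma test.

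The genes that lie beside the members along the chromosomes were looked at after the member values were known, as the 2 nearest protein-coding genes on each side in the reference order. Of 36 such genes outside the members, 29 had a probe and 11 were kept. Of the 11 kept, 1 passed the test, beside 177 of all 9905 kept genes, which is 1.79%. The gene that passed was TNS3, which encodes tensin 3, a focal adhesion protein. It comes next to IGFBP3 in the reference order, which gives no distances. Its log2 signals were 10.80, 10.69 and 10.81 in mock and 12.07, 11.79 and 11.60 in LAP2β cells. The groups were well apart, and LAP2β replicate 3, the highest array for IGFBP3, was the lowest LAP2β array for TNS3. TNS3 was 2.08-fold higher in LAP2β cells (means 10.76 ± 0.07 and 11.82 ± 0.24, SD, n = 3 each, log2 fold change 1.06, SE 0.12, adjusted p = 9.31e-04 from limma). It passed in all settings tried except the methods' t-test after Benjamini-Hochberg adjustment (adjusted p = 0.153), and its log2 fold change ran from 0.87 to 1.19.

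IGFBP1, the neighbour on the other side of IGFBP3 and the binding protein gene next to it, was above background on no array by either of its 2 probes, so the pair could not be compared. Tensin genes stood among the neighbours of 4 binding protein genes: TNS3 by IGFBP3, TNS4 by IGFBP4, TNS1 by IGFBP5 and TNS2 by IGFBP6. TNS1, TNS2 and TNS4 were above background on no array. The other 10 kept neighbours had adjusted p values of 0.408 or more from limma.

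**Figure D5:**
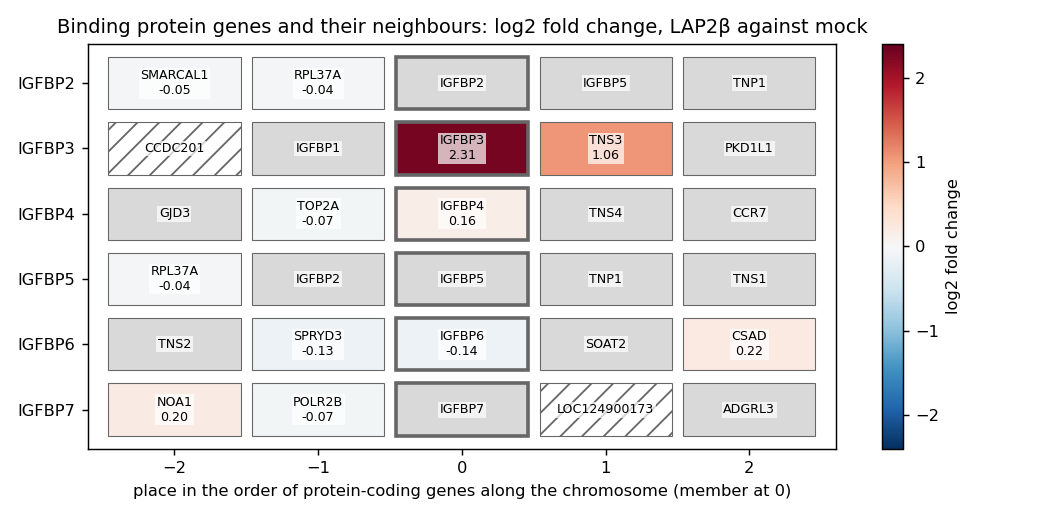
Log2 fold change, LAP2β against mock (colour and printed value), of the 6 binding protein genes (middle column) and the 2 nearest protein-coding genes on each side in reference order (horizontal axis). Grey boxes were not kept and hatched boxes had no probe here. IGFBP3 at 2.31 and TNS3 at 1.06 follow each other in this order, which gives no distances. The other kept genes lie between -0.14 and 0.22.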

How the data were processed

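RNA of the 6 samples was hybridized to Human HT-12 v4 bead chips, which the authors processed with BeadStudio 3.0 and quantile normalized. Their deposited intensity values, before and after normalization, are linear although the methods describe log2 values, and the series matrix (29285 probes) equals the normalized values. Background subtraction is not given in the sources used here. Of the authors' detection p-values, 2 columns matched no sample and went unused, so detection on mock replicate 3 was set from its signal ranks and the median p-value of the other 5 arrays at each rank, a rule chosen after the files had been seen.

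Intensities before normalization were quantile normalized and log2 transformed with limma 3.58.1 in R 4.3.3. Probes detected (p under 0.01) on 3 or more of 6 arrays were fitted with lmFit and eBayes, with Benjamini-Hochberg adjustment over all 13323, after a test on simulated data. The brightest kept probe stood for a gene. Symbols came from the platform annotation (27988 of 29377 probes had 1 symbol, 1389 several or none) and a RefSeq gene table of GRCh38 p14 (27819 matched), which also gave the gene order.

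The members and gene lists were chosen with earlier results of these data known. Named are every member, per role of the IGF list any gene past the threshold and up to 3 with the smallest adjusted p, TMPO, and the 5 genes most correlated with IGFBP3 and with IRS1. Neighbouring genes, and further genes named to account for a count, were chosen after values were seen. FOXO1 was also named outside this rule.

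Arrays of the same number deviated together from their group means (correlations 0.544, 0.228 and 0.368 over kept probes). Arrays of unlike number gave correlations from -0.434 to 0.158. The numbers were taken as pairs from these values, although no source says what a number shares. The fit with this block is given where it changed a call or moved a count by over 1.5 times, and for the SE of the first IGFBP3 probe. The other alternatives were the deposited normalized values and series matrix, neqc (offset 16), normexp (offset 50), median scaling, no normalization, other detection filters (none, all 6 arrays, p under 0.05), the methods' t-test, eBayes with trend and robust, an adjusted p under 0.01, a fold of at least 1.5, the mean over kept probes and leaving out each array. Of the IGF list 5 genes, and of the neighbours 7, were not analysed here.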

Additional observations from a re-analysis of the deposited data

How the results depend on the processing

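Of 105 log2 fold changes of members under the alternatives, 99 kept their direction and side of the threshold. Alternatives that changed only the probe filter, the test or the block repeat the main log2 fold changes, so the direction could not turn there. The series matrix likewise repeats those of the deposited normalized values. The 105 are thus not separate checks. IGFBP3 was not past the threshold by the methods' t-test after Benjamini-Hochberg adjustment (log2 fold change 2.31). IRS1 was not past it there or without mock replicate 2 (-0.60). The sign turned for IGFBP4 without normalization between arrays (-0.012), where the median over all kept probes was itself -0.14. For IGFBP6 the sign turned without single arrays (range -0.27 to 0.027). The member probes past the threshold were 3 of 6, and 2 or 3 with 1 array left out. By the methods' t-test after adjustment they were 0 of 6, against 1 of all 13323 kept probes. At its unadjusted p they were 3 of 6, against 1616 of 13323. The members were chosen from this contrast, and the second IGFBP3 probe was kept through the group in which it was high. Nothing is therefore read from these counts. Over all 13323 kept probes, 220 were past the threshold, 146 of them higher. The count was 145 after neqc, 537 with median scaling (114 higher, 423 lower), 521 without normalization between arrays (109 higher, 412 lower), 113 at an adjusted p under 0.01 and 145 with a fold of at least 1.5 as well. With the replicate block it was 821, and the block changed the call of no member probe. With 1 array left out it ran from 99 (without mock replicate 2) to 279, with 126 without LAP2β replicate 2, and without both arrays numbered 3, an alternative chosen after seeing the data, it was 135. Of the other genes of the IGF axis, 0 were past the threshold, 1 with median scaling, 2 without normalization between arrays, 3 by the methods' unadjusted t-test, 1 with the replicate block, and 0 to 1 with 1 array left out (SOCS3 without mock replicate 3). The cause of these changes was not tested. With 3 arrays a group, signals at or below background, as for IGFBP2, IGFBP5, IGF1R and IRS2, gave no measurable difference.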
